A study of Mus musculus with 8 samples.

Results

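The 9 genes of Akt and mTOR signalling followed here in C2C12 myoblasts were *Pik3r1*, *Akt1*, *Akt2*, *Mtor*, *Rptor*, *Rictor*, *Deptor*, *Tsc1* and *Tsc2*. They were listed by name for their place in the pathway, with earlier results of these data known. All 9 were among the 11406 genes tested for RNA level, out of 27179 genes in the expression table, and all 9 had a line in at least 3 of the 4 m6A peak lists.

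The PI3K, Akt and mTOR pathway carries growth factor signals to protein synthesis and cell growth. PI3K makes a membrane lipid that recruits and activates the Akt kinases, Akt inhibits the TSC complex, and TSC restrains Rheb, the small GTPase that activates mTORC1. In muscle the pathway is known for its roles in myoblast survival, differentiation and the growth of fibres. m6A, a methyl group on adenosines of mRNA, is placed largely within DRACH sequences (D is A, G or T, R is A or G, H is A, C or T) and often near stop codons.

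C2C12 is an immortalized line of mouse myoblasts, and all samples were of this line, grown on collagen in high glucose DMEM. Growth medium (GM) samples were dividing cells at 50% confluence in 10% fetal bovine serum. Samples after 3 days of differentiation (3d DM) had passed 90% confluence before the switch to 2% horse serum. Each state had 2 input libraries, which give RNA levels, and 2 libraries immunoprecipitated with an anti-m6A antibody (MeRIP-seq). The labels do not say that replicates came from separate cultures, so p-values measure only the spread between these samples, which may be technical, and the cells of a 3d DM dish are a mixture of fused and unfused cells that bulk RNA does not separate.

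The myotube and cycling marker genes moved with the labels. All 5 myotube genes (*Myog*, *Myh3*, *Mymk*, *Ckm* and *Acta1*) were higher in 3d DM and all 4 cycling genes (*Mki67*, *Top2a*, *Ccnb1* and *Cdk1*) were lower by limma at an adjusted p of 0.05, while *Ptprc*, *Pecam1* and *Epcam*, markers of other cell types, had values of at most 2.21. Of the myoblast genes, *Myf5* was lower in 3d DM (log2 fold change -2.14, adjusted p = 0.000118, limma), *Des* was higher (1.36, adjusted p = 0.0061) and *Myod1* did not pass (-0.10, adjusted p = 0.921). The GM libraries differed in myotube genes, with *Myog* at 1008 in replicate 1 and 221 in replicate 2. The part of this difference in the results below was not tested. The column totals were nearly equal, from 12534657 to 12536233, but a single entry took from 24.4% (GM replicate 1) to 41.3% (3d DM replicate 1) of them. Sequencing depth is unknown, since the files hold no read numbers.

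*Deptor* showed the largest difference of the 9 genes. Deptor binds mTOR in both complexes and inhibits its kinase activity. The normalized value of *Deptor* was 221 and 342 in the GM replicates and 835 and 1103 in the 3d DM replicates. The groups were well separated, and the mean rose from 281 ± 86.0 to 969 ± 189 (SD, n = 2). The log2 fold change (3d DM over GM, on the log2(value + 1) scale) was 1.80 with a standard error of 0.44, an adjusted p of 0.000603 (limma, Benjamini-Hochberg over all tested genes) and a fold of 3.48. *Deptor* was the only one of the 9 genes past the threshold, or 1 of 9, where 7.01% of all tested genes were called higher in 3d DM. None of the 9 was called lower by limma at an adjusted p under 0.05, where 9.96% of all tested genes were. None was lower at an unadjusted p under 0.05 either, a threshold at which the share of all tested genes was not counted. The *Deptor* call was lost without GM replicate 1 (log2 fold change 1.48, adjusted p = 0.21 by limma), without 3d DM replicate 1 (2.00, adjusted p = 0.079) and without 3d DM replicate 2 (1.60, adjusted p = 0.0873), and held without GM replicate 2 (2.12, adjusted p = 0.035).

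*Akt2* followed. Akt2 is the Akt kinase best known for insulin-stimulated glucose uptake in muscle and fat. Its value was 1254 and 879 in GM, against 1749.9 and 2578 in 3d DM. Both 3d DM values were above both GM values, with a log2 fold change of 1.02 ± 0.42 (standard error) and a fold of 2.02, but the adjusted p of 0.0799 (limma) did not pass. *Akt1*, the more widely expressed kinase of the pair, had values of 3049.8 and 3056 in GM, against 1985 and 3513 in 3d DM. The 3d DM values lay on either side of the GM values, and the log2 fold change was -0.21 ± 0.41 (adjusted p = 0.827, limma).

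*Mtor*, the kinase shared by both complexes, and *Rptor*, the scaffold (raptor) that brings substrates to mTORC1, had similar differences. *Mtor* had values of 486 and 484 in GM, against 690.1 and 818 in 3d DM. *Rptor* had values of 771 and 668 in GM, against 991 and 1292 in 3d DM. In both genes the 3d DM values were above the GM values, with log2 fold changes of 0.63 ± 0.44 and 0.66 ± 0.43, and neither passed (adjusted p = 0.394 and 0.355, limma). *Rictor*, the scaffold that defines mTORC2, had values of 297 and 359 in GM, against 309 and 403 in 3d DM. Here the groups overlapped, and the log2 fold change was 0.11 ± 0.46 (adjusted p = 0.923, limma).

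The genes upstream of mTOR were mixed. *Tsc2*, which encodes the GTPase-activating subunit that acts on Rheb, had values of 660.3 and 462 in GM, against 717 and 895 in 3d DM. The 3d DM values were above the GM values, and the log2 fold change was 0.54 ± 0.44 (adjusted p = 0.492, limma). *Tsc1*, which encodes the partner that stabilizes Tsc2, had values of 408 and 321 in GM, against 325 and 548 in 3d DM, which overlapped (log2 fold change 0.22 ± 0.45, adjusted p = 0.835, limma). *Pik3r1* encodes the regulatory subunit (p85) that holds the PI3K catalytic subunit at activated receptors. Its values were 656 and 454 in GM, against 442 and 616 in 3d DM, which also overlapped (log2 fold change -0.06 ± 0.44, adjusted p = 0.956, limma).

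**Figure D1:**
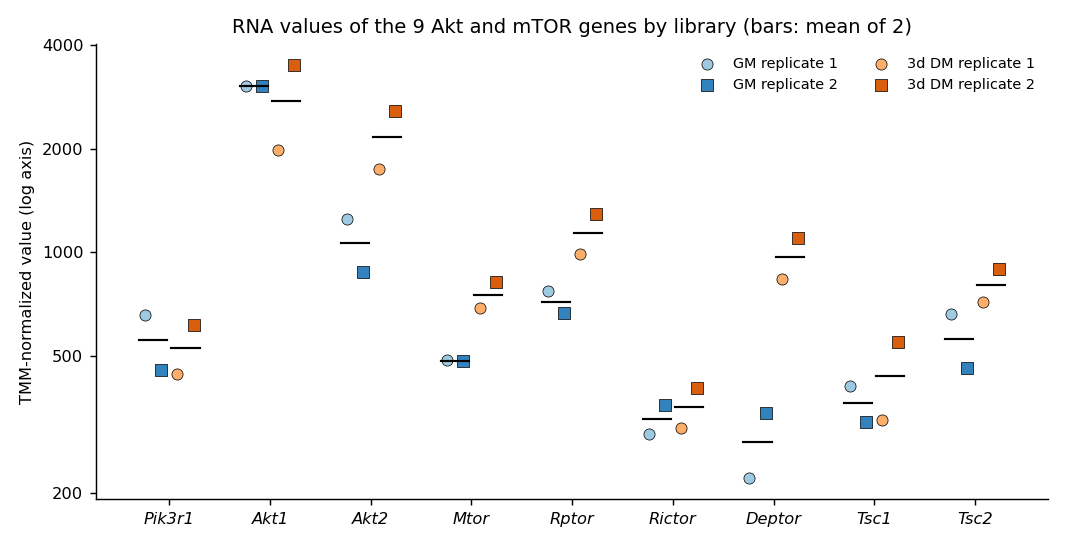
TMM-normalized RNA values (log axis) of the 9 genes in each input library, with circles for replicate 1, squares for replicate 2, blue for GM, orange for 3d DM, and a bar at the mean of each state. The 3d DM points lie above both GM points for *Akt2*, *Mtor*, *Rptor*, *Deptor* and *Tsc2*, and the states overlap for the other 4 genes.

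Values of 5 of the 9 genes (*Akt2*, *Mtor*, *Rptor*, *Deptor* and *Tsc2*) did not overlap and were higher in 3d DM, as in 16.8% of all tested genes. None of the 9 had both 3d DM values below both GM values, as 37.0% of all tested genes had. The median log2 fold change was 0.54 over the 9 genes and -0.22 over all tested genes. *Akt1*, *Pik3r1* and *Tsc1* had their lowest or nearly their lowest value in 3d DM replicate 1, the library with the largest single entry.

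Since the median of all genes was shifted by -0.22 in the deposited values, the comparison was also made after each library was rescaled by its median-of-ratios factor. After rescaling, *Deptor* had values of 187 and 342 in GM, against 1074 and 999.8 in 3d DM. *Akt2* had values of 1066 and 879 in GM, against 2251 and 2338 in 3d DM. The 3d DM replicates were closer to each other than before in both genes, while the GM replicates of *Deptor* were further apart. The log2 fold changes were 2.03 ± 0.30 for *Deptor* and 1.24 ± 0.18 for *Akt2* (adjusted p = 0.00834 and 0.00733, limma).

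On this scale *Mtor* (0.86 ± 0.19, adjusted p = 0.0265, limma), *Rptor* (0.88 ± 0.16, adjusted p = 0.0149) and *Tsc2* (0.76 ± 0.19, adjusted p = 0.0358) passed as well. Thus 5 of the 9 genes were called higher in 3d DM, where 12% of all tested genes were, and none lower by limma, where 11.2% were. *Tsc1* (0.45 ± 0.19), *Rictor* (0.34 ± 0.23), *Pik3r1* (0.16 ± 0.19) and *Akt1* (0.02 ± 0.20) did not pass, and the signs of *Pik3r1* and *Akt1* turned from the deposited scale. Values of 8 of the 9 genes were higher in 3d DM without overlap, *Akt1* being the exception, as in 33.9% of all tested genes. For *Pik3r1* and *Rictor* this separation was narrow. The lower 3d DM value of *Pik3r1* was 558.3 and its higher GM value 557.8, and those of *Rictor* were 365.0 and 359.1. The calls changed with the library left out of the rescaled values and were lost without either 3d DM library. Calls over all tested genes also fell without a 3d DM library and rose without a GM library. The log2 fold changes of these fits, with 1 library in a state, ran from 1.60 to 2.46 for *Deptor* and from 1.10 to 1.38 for *Akt2*. They ran from 0.73 to 0.99 for *Mtor*, 0.82 to 0.95 for *Rptor* and 0.62 to 0.91 for *Tsc2*.

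**Figure D2:**
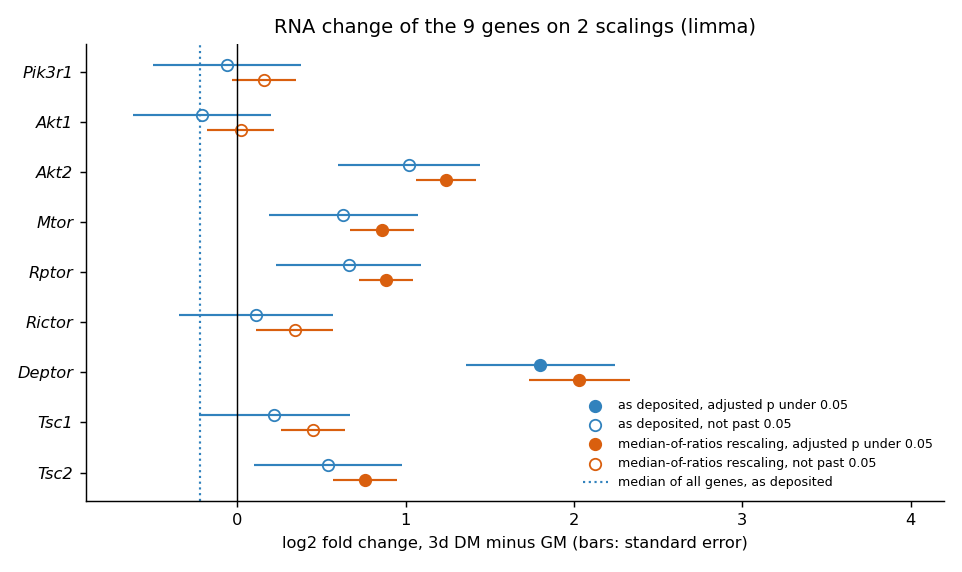
Log2 fold change (3d DM minus GM, with its standard error) of each gene in the deposited values (blue) and after median-of-ratios rescaling (orange), where filled points have an adjusted p under 0.05 in limma and the dotted line is the median of all tested genes as deposited (-0.22). *Deptor* is filled on both scales, and *Akt2*, *Mtor*, *Rptor* and *Tsc2* are filled only after rescaling.

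Per kilobase of the annotated transcript, *Akt1* had the highest level of the 9 genes in both states, at 1135 ± 1.56 in GM and 1022 ± 402 in 3d DM (SD, n = 2). *Akt2* came next, at 235 ± 58.4 in GM and 476 ± 129 in 3d DM. Per kilobase of the single transcript taken for each gene (2690 and 4544 nucleotides), *Akt1* was thus above *Akt2* in both states. Before division by length the 3d DM values overlapped, at 1985 and 3513 for *Akt1* and 1749.9 and 2578 for *Akt2*. The part of transcript choice in this order was not tested. *Rptor* (109 ± 10.97), *Tsc2* (93.2 ± 23.3) and *Pik3r1* (78.0 ± 20.1) formed a middle group in GM whose neighbours did not differ beyond their spread. *Mtor* (56.6 ± 0.16), *Tsc1* (47.5 ± 8.0), *Rictor* (35.3 ± 4.70) and *Deptor* (32.9 ± 10.1) were lowest there, the last 2 within their spread of each other. In 3d DM *Deptor* reached a level per kilobase of 113 ± 22.1, below *Rptor* (173 ± 32.2) and within the spread of *Tsc2* (134 ± 20.9), and above *Mtor* (88.0 ± 10.5), *Pik3r1* (74.4 ± 17.3), *Tsc1* (56.9 ± 20.6) and *Rictor* (38.2 ± 7.13).

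Of 64 other genes of the pathway, 58 were tested, 2 were called higher in 3d DM and none lower by limma, where 7.01% and 9.96% of all tested genes were. The share called was thus below that of all genes in both directions. At an unadjusted p under 0.05, 6 were higher and 3 lower, but the share of all tested genes at this threshold was not counted. The 3 lower genes, named here after their values were seen, were *Irs1* (-0.86 ± 0.42, adjusted p = 0.171), *Fnip2* (-0.96 ± 0.48, adjusted p = 0.176) and *Eif4e* (-1.01 ± 0.43, adjusted p = 0.0863, limma). Named in the same way, the higher genes besides the 2 called included *Flcn* (0.92 ± 0.45, adjusted p = 0.17) and *Slc38a9* (1.18 ± 0.51, adjusted p = 0.0935, limma). The others were *Ulk1* (0.89 ± 0.44, adjusted p = 0.178) and *Lpin1* (1.19 ± 0.51, adjusted p = 0.0991, limma). The 2 genes called act on the lipids made by PI3K. *Inpp4b*, a phosphatase that removes a phosphate from PI(3,4)P2, had values of 2.14 and 0.002 in GM, against 199 and 304 in 3d DM. It passed the filter on low values through its 3d DM values alone, so its call is given as a description, with no p and no fold, and it was not tested with the filter of 3 libraries. *Inppl1*, which encodes SHIP2, a phosphatase of PIP3, had values of 1211 and 1126 in GM, against 2981 and 4485 in 3d DM. Its log2 fold change was 1.65 ± 0.42 (adjusted p = 0.000876, limma). The *Inppl1* call was lost without any 1 of the 4 libraries, with adjusted p from 0.052 to 0.107 (limma).

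The direct partners named here did not pass in either direction (adjusted p over 0.05 for each, limma). *Pdpk1*, which phosphorylates Akt in its activation loop, had a log2 fold change of 0.41 ± 0.44 and *Pik3ca*, a catalytic subunit of PI3K, of 0.11 ± 0.44. Among the partners of mTOR, *Mlst8* had a log2 fold change of -0.27 ± 0.50, *Mapkap1* (mTORC2) of -0.05 ± 0.45 and *Akt1s1* (PRAS40, an inhibitor within mTORC1) of -0.13 ± 0.44. *Rheb* had a log2 fold change of -0.55 ± 0.43 and *Tbc1d7*, the third subunit of the TSC complex, of -0.10 ± 0.50. Of the 10 tested mTORC1 targets and effectors, none passed, and log2 fold changes ran from -1.01 (*Eif4e*) to 1.19 (*Lpin1*), with *Rps6kb1* at 0.26 ± 0.43 and *Eif4ebp1* at -0.25 ± 0.42.

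The median log2 fold change of the 58 genes was 0.02, beside 0.54 for the 9 genes and -0.22 for all tested genes. After rescaling it was 0.24, and 5 of the 58 were called higher and none lower by limma, again below the shares of all tested genes (12% and 11.2%). These were *Inpp4b*, *Inppl1*, and, named here after their values were seen, *Flcn* (1.14, adjusted p = 0.0187, limma), *Slc38a9* (1.41, adjusted p = 0.0111) and *Ulk1* (1.11, adjusted p = 0.0101). Flcn and Slc38a9 act in the sensing of amino acids at the lysosome, and Ulk1 starts autophagy and is inhibited by mTORC1. After rescaling, the count rose when a GM library was left out and fell when a 3d DM library was, as the count over all tested genes did. Without either 3d DM library the calls of *Flcn*, *Slc38a9* and *Ulk1* were lost.

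**Figure D3:**
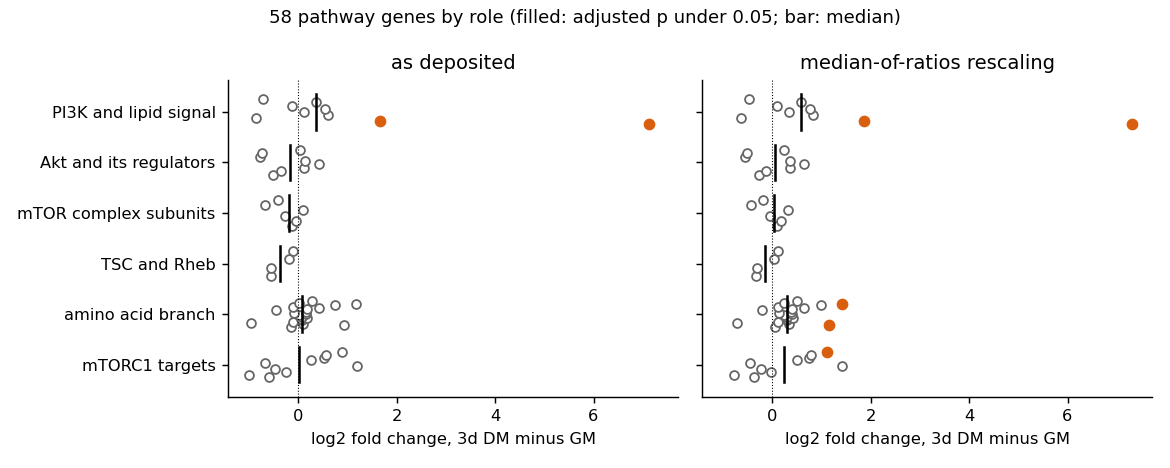
Log2 fold change (3d DM minus GM) of the 58 tested pathway genes by role, in the deposited values (left) and after rescaling (right), with a bar at the median of each role and filled points for an adjusted p under 0.05 in limma. The 2 filled points on the left are *Inppl1* and *Inpp4b*, and 5 are filled on the right.

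The 9 transcripts carried 29 distinct m6A peaks over the 4 lists, of which 10 were in all 4 lists, 7 in 3, 3 in 2 and 9 in 1. A peak here is a set of deposited lines of the same gene that share at least 1 bp. Of the 9 genes, 8 had a peak in every list, where 42.0% of all tested genes did, and 61.1% of tested genes with a mean value in the range of the 9 genes (342 to 2901). The exception was *Akt1*, with peaks in both GM lists and in that of 3d DM replicate 2 and none in that of 3d DM replicate 1. *Akt1* also had its lowest RNA value in 3d DM replicate 1, and whether the missing peaks go with it was not tested.

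The number of peaks of the 9 genes together was 22 and 20 in the GM lists and 23 and 23 in the 3d DM lists. The means were 21 ± 1.41 and 23 ± 0 (SD, n = 2), with p = 0.333 in the two-sided exact permutation test, the smallest p that 2 against 2 libraries allow. The lists differed in their totals for all genes, counted the same way, with 14399 and 12398 distinct peaks in GM, against 14447 and 11000 in 3d DM.

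The following windows come from within the peaks called in all 4 lists and show the sequence context of the candidate adenosines in each transcript. Each is a run of 25 bases from the GRCm38 genome (mm10), read along the transcript 5′ to 3′, around the DRACH match nearest the middle of the stretch that the lists share, with the GGAC form taken first where there was one. Capitals mark the 5 bases of the match, and only the strand of the transcript was searched. A match shows these letters and does not say that this adenosine is methylated.

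Akt2 3′ UTR, chr7:27638151-27638175, plus strand: tgccaccacaGGACAcaagcatggc
Deptor 3′ UTR, chr15:55255929-55255953, plus strand: gagccctgttGGACTcattcagtat
Mtor 3′ UTR near the stop codon, chr4:148556938-148556962, plus strand: acagacagttGGACTtgttaaatat
Mtor 3′ UTR near the transcript end, chr4:148557531-148557555, plus strand: gatcacagagGGACAcactagagca
Pik3r1 5′ UTR, chr13:101757824-101757848, minus strand: gaggacagatGGACAgcagccggac
Pik3r1 3′ UTR, chr13:101684273-101684297, minus strand: tgctcacgcaGGACActttgagaga
Rictor 3′ UTR, chr15:6797153-6797177, plus strand: aacgtcattgAGACTcgttattaag
Rptor 3′ UTR, chr11:119898856-119898880, plus strand: tgtgttcagtGGACCtgttttagcc
Tsc1 coding sequence, chr2:28687130-28687154, plus strand: tccacatcatGGACTacaatgagac

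These 9 windows come from the 10 peaks in all 4 lists. The tenth, in *Tsc2*, had a shared stretch of 15 bases with no match. The shared stretches of the 10 peaks held 69 DRACH matches in 2390 bases, or 28.9 per kilobase, beside 19.9 per kilobase in the 50295 bases of the 9 transcripts that no list covered with a peak. Over all genes, the stretches shared by the 4 lists held 24.1 matches per kilobase, and 94.4% of 5437 such stretches held at least 1. The share for the 9 genes was 90.0%. *Tsc1*, at 58.8 per kilobase in 102 bases, and *Mtor* near the stop codon, at 53.0 per kilobase in 151 bases, had the densest stretches of the 10, and *Rictor*, at 16.4 in 61 bases, and *Deptor*, at 16.6 in 362 bases, the sparsest apart from *Tsc2*.

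Of the 10 peaks in all 4 lists, 9 touched the 3′ UTR by the labels in the lists (90.0%), beside 67.9% of the 6055 peaks of all genes that were in all 4 lists. On the transcripts the shared stretch of *Akt2* ran from position -155 to 204 relative to the end of the coding sequence, across the stop codon. That of *Tsc1* ran from -113 to -11. In *Mtor* a stretch 73 to 224 bases after the end of the coding sequence was joined by another that reached the last annotated base, 823 bases after it. The peak of *Rptor* likewise reached the last annotated base, 1925 bases after the stop codon. That of *Deptor* lay far from both ends, 2997 to 4047 bases into a 3′ UTR of 7136 bases. The 362 bases of it that the lists share fell in separate pieces between 3147 and 3838. *Pik3r1* was alone in having a peak in all 4 lists that covered the 5′ UTR, with a second over the end of the coding sequence and the 3′ UTR. The bases of this second peak that the lists share lay within the 3′ UTR, between 192 and 739 bases after the coding sequence.

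**Figure D4:**
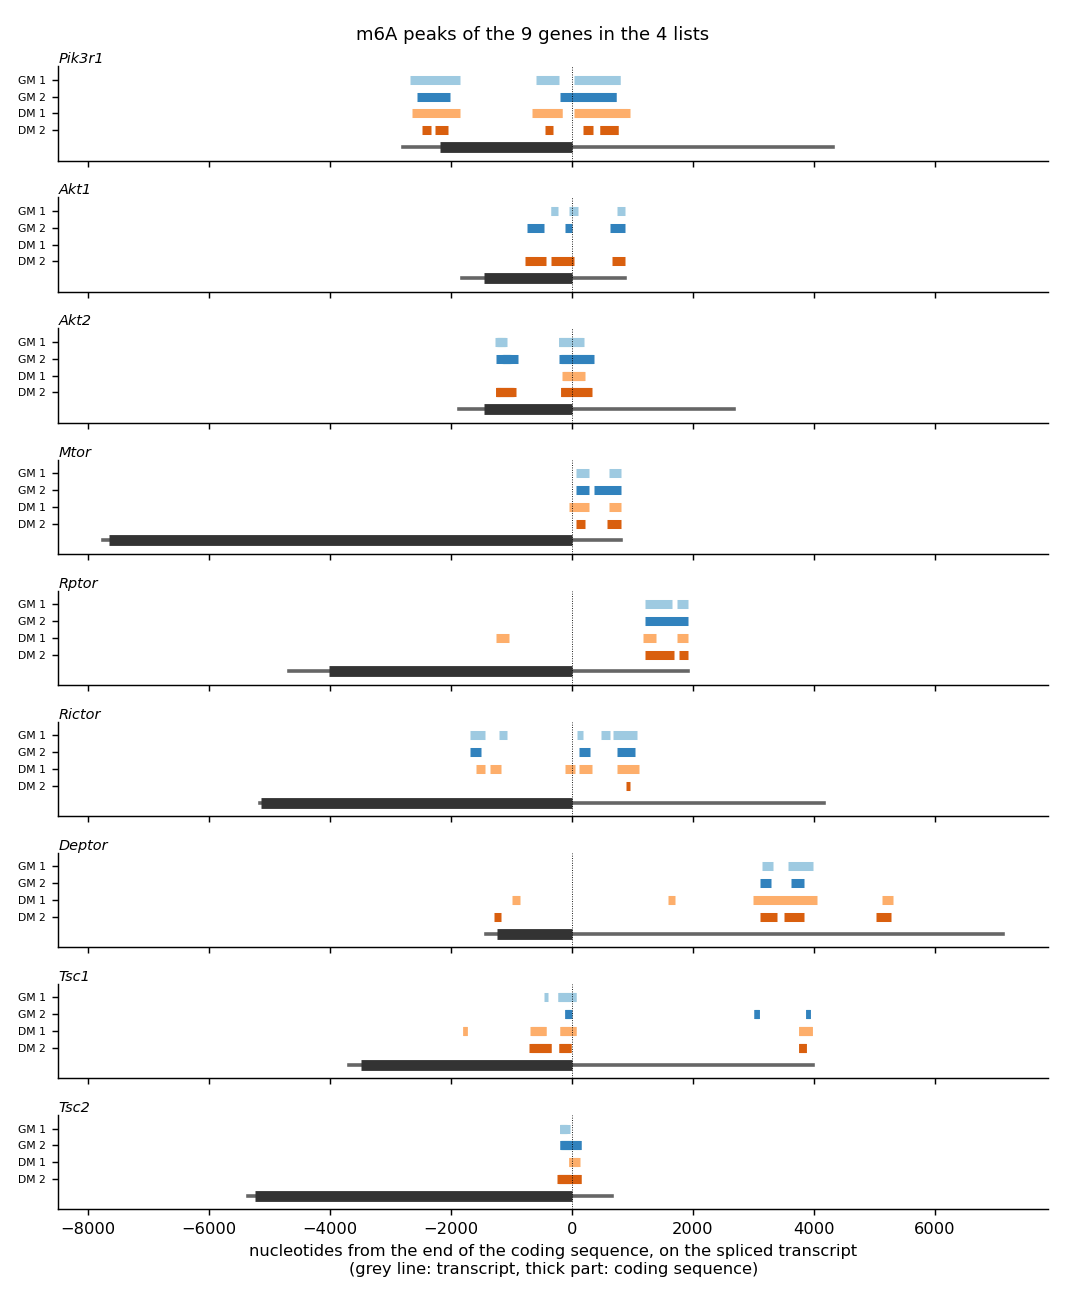
Positions of the m6A peaks of the 9 genes in the 4 lists, in nucleotides from the end of the coding sequence on the spliced transcript (grey line, with the coding sequence thick), with a row for each GM (blue) and 3d DM (orange) replicate. Most peaks lie at or after the end of the coding sequence, *Akt1* has none in 3d DM replicate 1, and *Deptor* has peaks outside its main 3′ UTR peak in the 3d DM lists. A *Tsc2* peak of GM replicate 2 lies beyond the drawn transcript.

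The peak of *Deptor* called in all 4 lists had the largest difference of the 10. Its fold enrichment (immunoprecipitated over input RNA, as the lists give it) was 4.48 and 6.78 in GM, against 14.3 and 7.89 in 3d DM. The 3d DM values were above the GM values, with a log2 difference of 0.95 ± 0.55 (standard error), an unadjusted p of 0.108 and an adjusted p of 0.996 (limma over 6055 peaks). These are the highest lines of the peak. In 3 lists it had a separate second line further downstream, which holds the *Deptor* window given above. This line had a fold enrichment of 3.69 and 3.52 in GM and 2.70 in 3d DM replicate 2, so the 3d DM value was the lower. In 3d DM replicate 1 a single line covered the whole peak. *Deptor* also had 4 peaks that were called in 3d DM lists alone. These were a peak over the start of the coding sequence in 3d DM replicate 2 (fold enrichment 7.93), a coding peak (1.62) and a 3′ UTR peak (2.03) in 3d DM replicate 1, and a more distal 3′ UTR peak in both (1.68 and 2.60). The RNA value of *Deptor* was 3.48-fold higher in 3d DM, and the part of RNA level in calling these peaks was not tested. How many peaks of all genes were called in the lists of a single state was not counted. Of the 29 peaks of the 9 genes, 9 were in a single list, with a peak each of *Rictor*, *Tsc1* and *Tsc2* in a GM list.

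*Mtor* had opposite differences at its pair of peaks. Near the stop codon the fold enrichment was 7.0 and 3.68 in GM, against 3.17 and 3.43 in 3d DM, with a log2 difference of -0.62 ± 0.44. At the transcript end it was 3.72 and 5.07 in GM, against 4.87 and 7.52 in 3d DM, with a log2 difference of 0.48 ± 0.46. The GM values were above the 3d DM values at the first and overlapped with them at the other, and neither difference passed (adjusted p = 0.996 for both, limma). *Akt2* had a fold enrichment of 4.47 and 3.43 in GM, against 2.98 and 3.26 in 3d DM across its stop codon, a log2 difference of -0.33 ± 0.38. The GM values were higher here while the RNA values were lower.

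The peaks of *Pik3r1*, *Rptor*, *Rictor*, *Tsc1* and *Tsc2* overlapped between the states. At the 3′ UTR peak of *Pik3r1* the fold enrichment was 9.01 and 14.2 in GM, against 9.52 and 6.08 in 3d DM. At its 5′ UTR peak it was 8.75 and 5.01 in GM, against 4.41 and 9.60 in 3d DM. In *Rictor* it was 5.77 and 10.2 in GM, against 14.8 and 6.26 in 3d DM. Replicates of a state thus differed by as much as the states did. *Rptor* ranged from 3.05 to 5.67, *Tsc1* from 3.36 to 9.19 and *Tsc2* from 2.08 to 3.19 over the 4 lists, with log2 differences of -0.15 ± 0.46, 0.44 ± 0.52 and 0.09 ± 0.36.

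No peak of the 9 genes was called different, by limma, and none of the 10 had an unadjusted p under 0.05. Of all 6055 peaks 0.0% were called and 208 had an unadjusted p under 0.05. The median log2 difference was 0.03 over the 10 peaks and -0.11 over all 6055. How many of the 6055 peaks had states without overlap was not counted. The separation of the states at the *Deptor*, *Akt2* and upstream *Mtor* peaks thus has no such share beside it. With 2 lists a state and standard errors from 0.36 to 0.61 on the log2 scale, a difference in enrichment of the size seen at *Deptor* was not detectable.

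**Figure D5:**
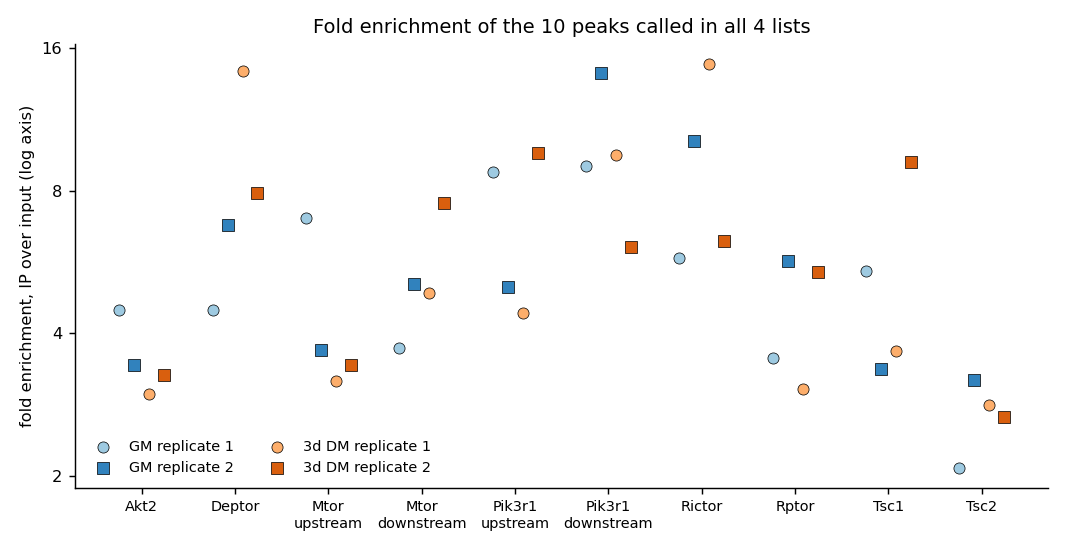
Fold enrichment (log axis) of the 10 peaks called in all 4 lists, with circles for replicate 1, squares for replicate 2, blue for GM and orange for 3d DM. The 3d DM points lie above the GM points for *Deptor* and below them for *Akt2* and the upstream *Mtor* peak, and the states overlap for the other 7 peaks. The share of peaks of all genes without overlap was not counted, and none of the differences passed in limma.

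Apart from the peak in all 4 lists, peaks of *Rictor* differed between lists, both within the 3′ UTR and outside it. A 3′ UTR peak was not called in 3d DM replicate 2, and another was called in GM replicate 1 alone. A peak in the coding sequence, from position -1674 to -1434 relative to its end, had a fold enrichment of 3.94 and 13.3 in GM and 3.78 in 3d DM replicate 1, and was not called in 3d DM replicate 2. The stretch of 91 bases that these 3 lists share is given here as coding sequence of an m6A peak with 2 DRACH matches in capitals.

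Rictor coding sequence, chr15:6786792-6786882, plus strand: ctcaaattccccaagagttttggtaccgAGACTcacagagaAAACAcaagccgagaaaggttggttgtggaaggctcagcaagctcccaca

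*Rictor* had 5 and 3 peaks in the GM lists, against 5 and 1 in the 3d DM lists, so they differed as much within 3d DM as between states. *Akt2* had a coding peak with a fold enrichment of 2.06 and 2.16 in GM and 3.30 in 3d DM replicate 2, absent from the list of 3d DM replicate 1. *Tsc1* had a coding peak of 2.72 in GM replicate 1, not called in the other GM list, against 2.51 and 11.7 in the 3d DM lists. The peak at the end of the *Akt1* transcript had a fold enrichment of 2.30, 2.52 and 2.55 in the 3 lists that held it, and the one at its stop codon 1.62, 1.76 and 3.51.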

How the data were processed

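RNA-seq of 4 input libraries and MeRIP-seq of 4 immunoprecipitated libraries of C2C12 myoblasts, 2 of each in GM and in 3d DM, were grouped by the deposit's labels. Reads were aligned by the authors to mm10 with HISAT2 (version 2.1.0 in the submitters' processing notes), and peaks were called with exomePeak for each sample. Each peak and transcript of the 4 deposited lists has a fold, a ratio of IP to input, and a p-value. The expression table the authors deposited holds a normalized signal named for TMM and made with edgeR. Its low values repeat in pairs within a state, as in adjusted pseudo-counts, so reads could not be recovered, and depth and counting error are unknown. In the limma fit of the deposited values, standard errors follow the intensity trend more than a gene's own replicates, and so do the p-values. They were 0.41 to 0.46 for the 9 genes there, and 0.16 to 0.30 after median-of-ratios rescaling.

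For the genes with at least 2 cpm (a value of 25.1) in at least 2 libraries, limma 3.58.1 under R 4.3.3 was run with its intensity trend on log2(value + 1), and adjusted p-values (Benjamini-Hochberg) were read at a threshold of 0.05. Peak enrichment was tested with limma on the log2 fold, taking the highest line of a peak in a library. Entrez identifiers were matched to symbols for 98.7% of tested genes. Transcripts and positions are those of GENCODE M21 (GRCm38), in which peak starts proved to be counted from 0, and the windows were read from the RefSeq copy of GRCm38. Both limma tests were first tried on simulated data. Alternatives were other filters, pseudocounts, scalings, a replicate block, other peak definitions and each library left out, and rescaling with a library left out was added after seeing the data.

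The 9 genes and the lists were chosen with earlier results of these data known. All 9 genes were named, with pathway genes past the threshold, direct partners and the markers, and some direct partners are not reported here. Python 3.11.15, numpy 2.4.6, pandas 2.3.3 and matplotlib 3.10.9 were used.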

Additional observations from a re-analysis of the deposited data

How the results depend on the processing

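Of the 9 genes, 1 was called higher in 3d DM as deposited, 5 under median-of-ratios and 5 under trimmed-mean rescaling, and 0 without a filter on low values, where 27179 genes were tested. Leaving out a library gave from 0 to 1 as deposited and 0, 0, 5 and 6 after rescaling. Called pathway genes numbered 2, and 5 under either rescaling, 1 with the filter of 3 libraries, 0 without a filter and from 1 to 2 with a library left out as deposited. After rescaling they numbered 2 without 3d DM replicate 1 or 2, and 18 and 10 without GM replicate 1 or 2, where 4 and 3 were called lower. The log2 fold changes of *Pik3r1* and *Akt1* turned to 0.16 and 0.02 under both rescalings. With a library left out, the log2 fold change ranged from -0.33 to 0.20 for *Pik3r1*, from -0.62 to 0.20 for *Akt1*, from -0.08 to 0.30 for *Rictor* and from -0.16 to 0.60 for *Tsc1*. Left out together with rescaling, *Pik3r1* had 0.15 and 0.18 (without 3d DM replicate 1 or 2) and 0.31 and 0.01 (without GM replicate 1 or 2), and *Akt1* turned to 0.18 (without 3d DM replicate 1) and 0.14 (without GM replicate 2). At the peaks, a library left out gave log2 differences from -0.59 to 0.54 (*Pik3r1* upstream), -0.29 to 0.95 (*Rictor*), -0.56 to 0.26 (*Rptor*), -0.22 to 1.11 (*Tsc1*) and -0.22 to 0.40 (*Tsc2*). The upstream *Pik3r1* peak turned to 0.08 with libraries centred on their medians. The causes were not tested. The difference in the mean number of peaks, counted within each list, was 2, and 0 for peaks with a fold of at least 4. With the replicate number as a block (replicate block), *Deptor* kept its call (1.80, adjusted p = 0.0171, limma) and no other call of the 9 genes changed, although 1298 of all genes were called instead of 1936. The labels do not tie the numbers to a shared batch, and the correlation of replicate differences between states was 0.29 for RNA and 0.13 for peaks. Over all genes, 800 of 1936 calls were higher in 3d DM as deposited and 1366 of 2647 after rescaling, and 154 genes were called without a filter, and with a library left out from 145 (without 3d DM replicate 1) to 1252. With 2 libraries a state, differences below the standard errors given cannot be seen.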
